A study of Homo sapiens with 2 samples.

Results

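MCF10A cells that carried transcripts of mitosis 15 h after a PI3K inhibitor was added were picked out of single-cell RNA counts and compared with the cells of the same cultures that carried few or none. For each cell M is the share of its UMIs, the counted molecules, that came from TOP2A, CENPF, CDC20, CCNB1, PLK1, AURKA, HMMR, TPX2, UBE2C and DLGAP5, given here per 10,000 UMIs. Of 880 cells with the PI3K inhibitor at 30 h, out of 4837 in all, the members were chosen by M: the top 15% within each library were taken as M-high and the cells up to the median as M-low. That gave 56 M-high cells in library 1 and 76 in library 2, or 132 in all, against 194 and 252 M-low cells, or 446 in all. The 10 genes of M chose the cells, so they are only described and entered no test.

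MCF10A is a human mammary epithelial line, immortal but not tumour-forming, whose growth depends on EGF. Cells at 0 h without EGF, at 15 h, and with the inhibitor at 20 h serve below only to describe M. All cells tested here had been given EGF and were harvested 30 h later. The inhibited cultures received an inhibitor of PI3K activity at 15 h, and the others had EGF alone, with 245 and 344 cells in libraries 1 and 2. Which inhibitor was used, and at what dose, the labels do not say. Each library pools 1 biological replicate of every condition, marked with sample tags, so n = 2 for each class of cells, and no barcode was shared by the libraries. Library 1 is named before library 2 wherever a pair of values is given for a class of cells.

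PI3K is a lipid kinase downstream of EGFR that activates AKT. AKT keeps FOXO transcription factors out of the nucleus and favours growth, glycolysis and lipid synthesis through mTORC1 and SREBP. When PI3K is blocked, FOXO factors induce genes such as TXNIP, CCNG2 and IRS2. Cells that pass into S phase raise replication genes through E2F. Before mitosis they raise a later set of genes through B-MYB and FOXM1, and promoters of that set often hold the elements named CHR and CCAAT.

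M showed no gap at the limit of the M-high class. The lowest M among M-high cells was 3.63 in library 1 and 9.07 in library 2, while the highest M just outside was 3.48 and 8.94. In library 1 every M-low cell had an M of 0 and the next cell had 0.395. In library 2 M-low cells reached 1.7562 and the next cell had 1.7569. The median M of M-high cells was 7.83 and 13.1. It rested on few molecules, with a median of 11 and 16 UMIs of the 10 genes per M-high cell and a lowest count of 2 and 4. Of the cells with EGF alone, 66.9% and 84.0% lay at or above these limits, with a median M of 19.03 and 31.6 among them. M was thus higher in the EGF cells above the limits than in the inhibited ones. At 15 h, when the inhibitor was added, 6.56% and 10.9% of cells reached these limits, and among inhibited cells at 20 h 10.5% and 16.0% did.

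M has a background that differs between the libraries. Of the cells without EGF at 0 h, 3.43% in library 1 and 13.8% of 29 cells in library 2 lay at or above the limits, and their median M was 0 and 4.27. Free RNA in the droplets can give such counts, and its part in M was not tested. Median depth was 15403 and 12196 UMIs per cell in M-high inhibited cells, 11212 and 11524 in M-low inhibited cells, and 17900 and 15710 in M-high EGF cells, so the M-high cells of library 1 were deeper than the M-low ones. Summed counts per class ran from 301016 to 4428495 UMIs. Division itself was not measured.

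**Figure D1:**
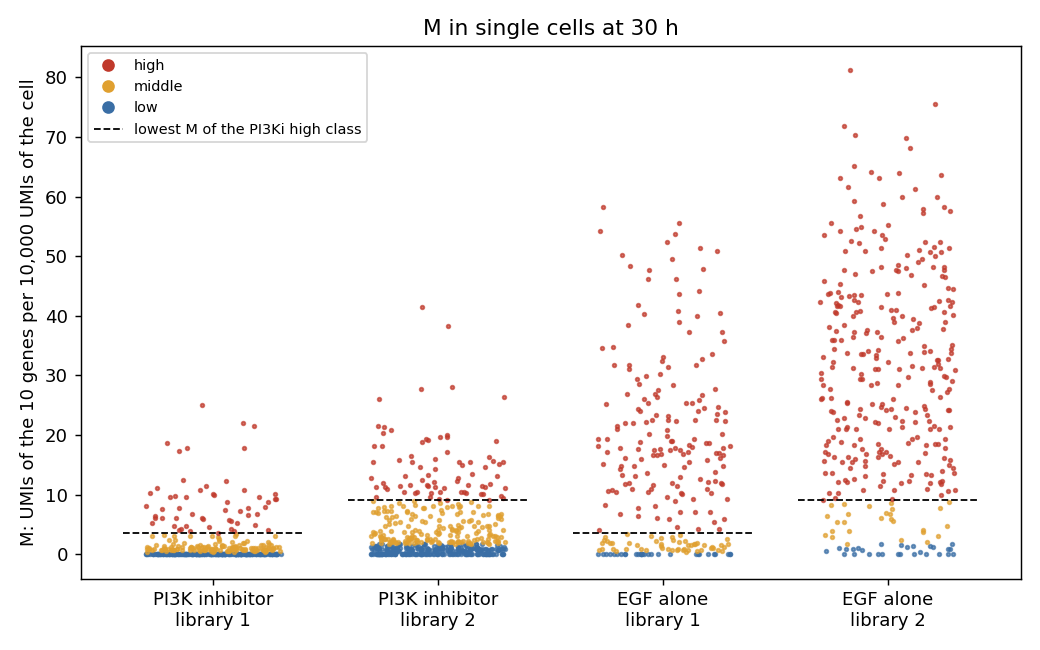
M of each cell at 30 h, in UMIs of the 10 genes per 10,000 UMIs of the cell, by treatment and library. Each point is 1 cell, colours give the 3 classes by M (red high, yellow middle, blue low), and dashed lines mark the lowest M of the M-high inhibited cells, 3.63 in library 1 and 9.07 in library 2. Most EGF cells lie above the lines.

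The genes of M had these summed levels, as a description of what chose the cells. CENPF, a kinetochore protein of late G2, stood at 295 and 434 CPM (UMIs of the gene in the summed cells, scaled to a common total) in M-high inhibited cells, against 0 and 5.30 in M-low ones. PLK1, the kinase that starts mitosis, was at 20.7 and 51.8 CPM in M-high inhibited cells, against 0 and 2.495 in M-low ones. UBE2C, the ubiquitin-conjugating enzyme of the anaphase-promoting complex, had 184 and 268 CPM in M-high inhibited cells, against 0 and 13.7 in M-low ones. Among inhibited cells all 10 genes were highest in the M-high class of both libraries. In library 1 the choice itself fixed each of the 10 genes at 0 in M-low cells, so none could be higher there than in M-high cells. Elsewhere it fixed only their sum.

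M-high inhibited cells carried the rest of the mitotic programme together with the genes of DNA replication. Of 8600 genes tested, edgeR called 820 (9.53%) between M-high and M-low inhibited cells at an adjusted p of 0.05, 491 higher (5.71%) and 329 lower (3.83%). The classes were cut from the same counts, so these calls describe the cells M picked and support nothing more. Without the M-high sum of library 1 there were 383 calls, without that of library 2 there were 375, and without the library as a block there were 334. With library totals in place of TMM scaling the split was 626 higher and 119 lower, and the median of all genes moved to 0.12, from which changes under that scaling are to be read. Genes in the lists of mitosis, replication and histones made up 150 of the 491 higher calls, out of 176 such genes tested.

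CDK1, the kinase that drives entry into mitosis, had 131 and 177 CPM in M-high inhibited cells, against 3.53 and 13.4 CPM in M-low ones, a log2 difference of 4.003 (SE 0.42). FOXM1, a transcription factor that induces mitotic genes, had 23.2 and 18.6 CPM in M-high cells, against 0 and 0.936 CPM in M-low ones. Each class kept its own range in both genes. Of 18 genes for CDK1 and its regulators, 15 were higher and none lower, with a median log2 difference of 3.24, beside -0.02 over all genes tested. CDC25C, the phosphatase that activates CDK1, had 8.54 and 7.25 CPM in M-high cells, against 0 and 0.312 CPM in M-low ones. GTSE1, a microtubule-binding protein of G2 that restrains p53, had 29.3 and 41.4 CPM in M-high cells, against 0 and 0.312 CPM in M-low ones. Its M-low value rests on 1 UMI in both libraries together, against 64 in M-high cells, a ratio of 196 with a 95% counting interval of 34.0 to 7869. CCNB2 and CCNA2, the cyclin partners of CDK1, had log2 differences of 3.39 (SE 0.41) and 3.81 (SE 0.46).

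The machinery that segregates chromosomes was higher as a whole. Among 18 genes of the chromosomal passenger complex and spindle checkpoint 16 were higher, with a median of 3.36, such as the kinases AURKB (4.60, SE 0.54), BUB1 (4.20, SE 0.54) and TTK (3.95, SE 0.50). BIRC5, the passenger subunit survivin, had 63.4 and 76.6 CPM in M-high inhibited cells, against 3.97 and 4.99 CPM in M-low ones. Of 23 kinetochore and centromere genes 20 were higher (median 3.31), among them KNL1, the scaffold that binds checkpoint kinases, with 36.6 and 37.3 CPM in M-high cells, against 0.441 and 0.936 CPM in M-low ones. Kinesins, spindle and cytokinesis genes were higher in 31 of 34 cases (median 3.53). KIF4A, a chromosome-bound kinesin, had 15.9 and 22.8 CPM in M-high cells, against 0 in M-low cells of both libraries, which makes it at least 35.8-fold higher, taking 3 counts over the M-low cells as the floor. KIF14, a kinesin of cytokinesis, had 25.6 and 42.5 CPM in M-high cells, against 0.441 and 0.624 CPM in M-low ones. Condensins and other mitotic chromosome genes were higher in 25 of 26 cases (median 2.05). MKI67, the proliferation marker Ki-67 that coats mitotic chromosomes, had 113 and 119 CPM in M-high cells, against 2.21 and 2.18 CPM in M-low ones. No member of these lists was lower.

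Promoters of these genes were read from RefSeq (GRCh38.p14), 250 bases before to 50 bases after each gene's start, because most of them share short elements. CDK1 (chr10:60778081-60778380, plus strand), CCNB2 (chr15:59104896-59105195, plus strand) and MKI67 (chr10:128126374-128126673, minus strand) are shown, with capitals for CHR elements (TTTGAA or TTTAAA) and CCAAT boxes on either strand, the second written ATTGG.
CDK1: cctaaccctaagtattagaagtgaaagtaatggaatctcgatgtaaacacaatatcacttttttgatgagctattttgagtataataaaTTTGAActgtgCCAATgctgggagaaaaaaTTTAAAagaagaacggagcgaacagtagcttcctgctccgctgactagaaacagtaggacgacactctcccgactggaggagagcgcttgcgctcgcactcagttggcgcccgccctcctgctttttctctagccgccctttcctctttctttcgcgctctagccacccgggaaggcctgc
CCNB2: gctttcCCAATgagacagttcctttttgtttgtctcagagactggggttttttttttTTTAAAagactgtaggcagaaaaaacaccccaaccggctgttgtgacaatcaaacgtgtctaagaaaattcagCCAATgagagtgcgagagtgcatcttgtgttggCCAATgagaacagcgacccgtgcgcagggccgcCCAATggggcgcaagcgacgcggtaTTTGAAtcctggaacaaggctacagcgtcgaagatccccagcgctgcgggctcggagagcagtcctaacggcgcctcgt
MKI67: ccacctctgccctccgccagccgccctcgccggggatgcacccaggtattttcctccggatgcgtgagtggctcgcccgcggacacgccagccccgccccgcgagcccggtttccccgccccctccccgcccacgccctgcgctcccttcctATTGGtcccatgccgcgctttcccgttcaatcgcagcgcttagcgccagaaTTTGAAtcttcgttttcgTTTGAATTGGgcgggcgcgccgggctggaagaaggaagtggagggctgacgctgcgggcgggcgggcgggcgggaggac
In MKI67 the second CHR element runs into an ATTGG, so those matches overlap. The promoter of CCNA2 was read as well and is not shown. It held 1 CCAAT box and no match to either CHR element. A CHR element was found in 62 of 86 promoters (72.09%) of mitosis-list genes called higher in M-high inhibited cells, against 15.03% of 6906 tested genes with a promoter in the table and 24.26% of all 27305. CCAAT was found in 69.77% of these mitosis promoters, against 37.66% of tested genes. The replication genes called higher differed in CHR, found in 14.71% of 34 promoters, but were close in CCAAT, found in 64.71%. A match says only that these letters occur in the window.

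Replication genes were also higher in M-high inhibited cells. Of 55 tested genes of DNA replication and S phase (57 listed) 43 were higher and none lower, with a median log2 difference of 1.95. RRM2, the small subunit of ribonucleotide reductase, had 120 and 116 CPM in M-high inhibited cells, against 4.85 and 8.11 CPM in M-low ones (4.04, SE 0.48). The licensing factor CDT1 had 69.5 and 52.8 CPM in M-high cells, against 7.06 and 10.3 CPM in M-low ones (2.69, SE 0.40). PCNA, the sliding clamp of DNA polymerases, differed less, with 162 and 147 CPM in M-high cells, against 54.7 and 70.8 CPM in M-low ones (1.16, SE 0.24). The helicase subunit MCM6 had 4.88 and 3.11 CPM in M-high cells, against 3.53 and 3.74 CPM in M-low ones, so these ranges overlap (-0.05, SE 0.66). Per cell, the S phase list took a median of 20.5 and 23.0 UMIs per 10,000 in M-high inhibited cells, 5.55 and 7.43 in M-low inhibited cells, and 28.996 and 27.4 in M-high EGF cells.

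Regulators of G1 were mixed. Of 25 tested G1 cyclins, G1 kinases and CDK inhibitors 7 were higher and none lower, with a median of 0.35. RBL1, the pocket protein p107 that E2F itself induces, was higher by 2.40 (SE 0.46), and FBXO5, an inhibitor of the anaphase-promoting complex, by 3.51 (SE 0.52). CCND1, which encodes cyclin D1, had 76.8 and 120.2 CPM in M-high inhibited cells, against 93.5 and 119.8 CPM in M-low ones. The CDK inhibitor genes CDKN1A (-0.69, SE 0.26), CDKN1B (-0.20, SE 0.42) and CDKN1C (-0.45, SE 0.32) were not called. Of the few clustered histone genes that passed the filter, 4 of 27 listed, HIST1H4C had 133 and 135 CPM in M-high cells, against 13.2 and 11.5 CPM in M-low ones. HIST1H2AC was the exception, with 4.88 and 3.11 CPM in M-high cells, against 33.1 and 30.3 CPM in M-low ones. Reads of histone genes can be shared among near-identical copies.

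Outside the cell cycle lists the largest rises in M-high inhibited cells were still genes known from DNA repair and cell division, with 1 exception. DIAPH3, a formin that builds actin filaments for cytokinesis, had 86.6 and 83.9 CPM in M-high cells, against 0.882 and 1.87 CPM in M-low ones (5.71, SE 0.53). ESCO2, the acetyltransferase of sister chromatid cohesion, had 40.3 and 31.1 CPM in M-high cells, against 0.882 and 0.624 CPM in M-low ones. The repair genes BRCA2 and BRCA1 were higher by 5.11 (SE 0.58) and 3.46 (SE 0.48), and MND1, known from meiotic recombination, by 3.97 (SE 0.49). SHCBP1 (4.81, SE 0.56) and the kinase gene PBK (3.28, SE 0.40) were higher as well. DHRS2, a short-chain dehydrogenase, was the exception. It had 48.8 and 57.0 CPM in M-high cells, against 0 and 0.624 CPM in M-low ones, but these sums rest on 2 and 3 cells. A single cell held 39 of 40 UMIs in library 1 and another held 31 of 55 in library 2, so its change belongs to single cells.

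Genes of keratinocyte stress and differentiation were lower in M-high than in M-low inhibited cells. KRT16, a keratin of stressed and differentiating epidermis, had 84.2 and 133 CPM in M-high inhibited cells, against 603 and 788 CPM in M-low ones (-2.82, SE 0.23). The middle class by M, with 494 and 394 CPM, lay between them. KRT17, so similar to KRT16 that counting could split reads between them, had 2200 and 5071 CPM in M-high cells, against 4382 and 10020 CPM in M-low ones (-1.13, SE 0.13). Of 12 tested squamous genes (21 listed) 8 were lower and none higher, with a median of -0.78, or 5 lower and a median of -0.65 with library totals. KRT6B was at 1.22 and 7.25 CPM in M-high cells, against 16.8 and 19.6 CPM in M-low ones (-2.18, SE 0.63), and SBSN, a secreted epidermal protein, at 1.22 and 4.14 CPM, against 6.18 and 14.7 CPM (-2.07, SE 0.63). The calls of both were lost without the M-high sum of library 1 (-1.82 and -2.07) and without that of library 2 (-3.47 and -2.10). KRT6B can share reads with KRT6A.

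Other lower genes came from several groups. The surface glycoprotein gene CD24 had 9.76 and 25.9 CPM in M-high inhibited cells, against 41.9 and 93.9 CPM in M-low ones (-2.07, SE 0.30). The long noncoding RNA NEAT1, the scaffold of nuclear paraspeckles, had 717 and 789 CPM in M-high cells, against 1908 and 1919 CPM in M-low ones (-1.48, SE 0.19). The calcium-binding S100A4 had 70.7 and 36.3 CPM in M-high cells, against 187 and 97.3 CPM in M-low ones. The stress-induced NUPR1 had 25.6 and 24.9 CPM in M-high cells, against 64.0 and 62.7 CPM in M-low ones. Levels of both classes were apart in each library for these 4 genes. Without the library as a block the calls of S100A4, KRT17 and KRT14 were lost (log2 differences of -1.56, -1.13 and -0.66). CTGF, a secreted YAP target, was lower by a log2 difference of 1.36 (SE 0.24) and lost its call without the M-high sum of library 2 (-1.33). Of 16 basal epithelial genes 4 were lower, KRT17, KRT14, EGFR (-0.61, SE 0.13) and KRT5 (-0.46, SE 0.11), and of 20 lysosome and autophagy genes 4 were lower, CTSD, SQSTM1, MAP1LC3B and CTSB. Without the M-high sum of library 1 the calls of EGFR (-0.51), KRT5 (-0.42), CTSD (-0.53) and MAP1LC3B (-0.54) were lost, and without that of library 2 those of KRT5 (-0.52), SQSTM1 (-0.39), MAP1LC3B (-0.45) and CTSB (-0.36). With library totals the basal list had 4 lower and 1 higher and the lysosome list 1 lower.

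Few FOXO-induced genes were called between M-high and M-low inhibited cells, a share near that over all genes (9.53%). TXNIP, an arrestin that binds thioredoxin and limits glucose uptake, had 305 and 262 CPM in M-high inhibited cells, against 346 and 225 CPM in M-low ones, so the ranges overlap (-0.12, SE 0.13). IRS2, the adaptor that couples insulin receptors to PI3K, had 30.5 and 44.5 CPM in M-high cells, against 42.8 and 43.4 CPM in M-low ones (-0.33, SE 0.21). Of 26 tested FOXO-induced and PI3K feedback genes (32 listed) none was higher in M-high inhibited cells and 3 were lower, with a median of -0.42. These were the pyruvate dehydrogenase kinase gene PDK4 (-1.94, SE 0.43), PNRC1 (-1.32, SE 0.23) and CITED2 (-0.88, SE 0.22). The calls of PDK4 (-1.11) and CITED2 (-0.72) were lost without the M-high sum of library 2. With library totals 3 were lower, 1 was higher and the median was -0.28.

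Per cell the FOXO list took a median of 10.4 and 12.1 UMIs per 10,000 in M-high inhibited cells, 11.02 and 12.98 in M-low inhibited cells, and 6.08 and 7.94 in M-high EGF cells. The quartiles of M-high inhibited cells were 7.76 and 12.01 in library 1 and 8.73 and 15.3 in library 2. In M-high EGF cells they were 4.04 and 7.21 in library 1, and 5.93 and 10.1 in library 2. The spans between quartiles were thus apart between treatments in library 1 and overlapped in library 2. None of 15 MEK/ERK output genes was called between M-high and M-low inhibited cells, and of 18 immediate early genes 3 were lower, BTG1 (-0.86, SE 0.13), ATF3 (-0.70, SE 0.21) and DUSP1 (-0.43, SE 0.10). ATF3 and DUSP1 lost their calls without the M-high sum of either library. Among 24 genes for parts of the PI3K, AKT and mTOR pathway 2 were higher and none lower (median 0.07), a share near that over all genes (9.53%). They were RHEB, the GTPase that activates mTORC1 (0.54, SE 0.10), and TSC1, its brake (1.90, SE 0.57). TSC1 rests on 18 UMIs in M-high and 13 in M-low cells. Without the library as a block both calls were lost (0.54 for RHEB and 1.93 for TSC1). The TSC1 call was lost without either M-high sum (1.36 without library 1 and 2.28 without library 2), as was that of RHEB without library 2 (0.51).

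**Figure D2:**
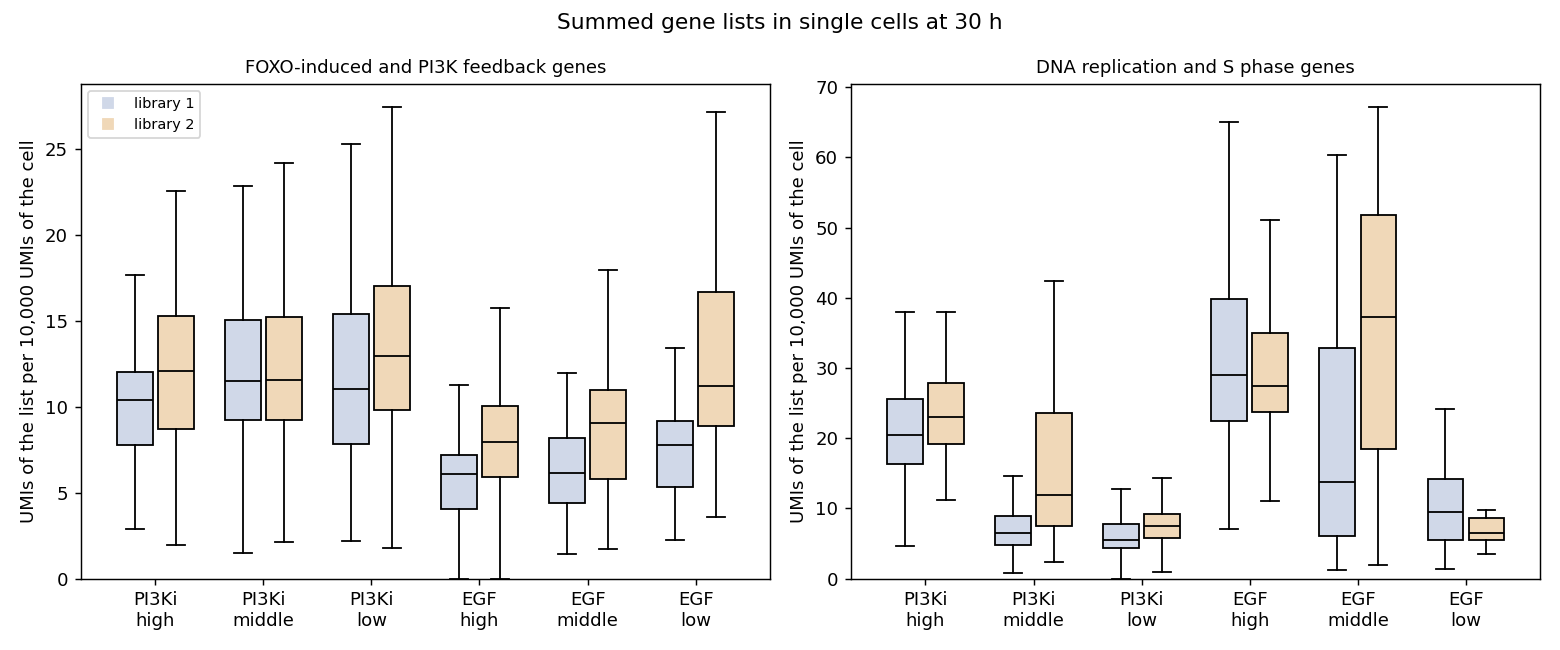
UMIs of the FOXO-induced and PI3K feedback list (left) and of the S phase list (right) per 10,000 UMIs of each cell, in the classes by M of both treatments at 30 h. Boxes span the quartiles with the median as a line, whiskers reach the last cell within 1.5 box lengths, and more distant cells are not drawn. Medians of the FOXO list are 10.4 and 12.1 in M-high inhibited cells and 6.08 and 7.94 in M-high EGF cells.

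Markers of other cell types differed between the classes and the treatments at low level. Summed over 10 matched markers of immune, endothelial, stromal and red blood cells they came to 17.1 and 15.5 CPM in M-high inhibited cells, against 37.1 and 24.95 CPM in M-low ones, with 5 and 6 of the 10 at 0 in M-high cells and 3 and 4 in M-low ones. The difference came largely from DCN, a matrix proteoglycan of fibroblasts, at 2.44 and 0 CPM in M-high cells, against 23.4 and 7.48 CPM in M-low ones. Epithelial markers summed to 11822 and 18825 CPM in M-high cells, against 18217 and 28382 CPM in M-low ones. With EGF alone the 10 markers of other cell types came to 35.1 and 32.1 CPM in M-high cells and 95.4 and 75.4 CPM in M-low cells. CD14, a monocyte receptor, had 1.22 and 3.11 CPM in M-high inhibited cells, against 17.9 and 16.0 CPM in M-high EGF cells. What part these had in the other differences was not tested.

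**Figure D3:**
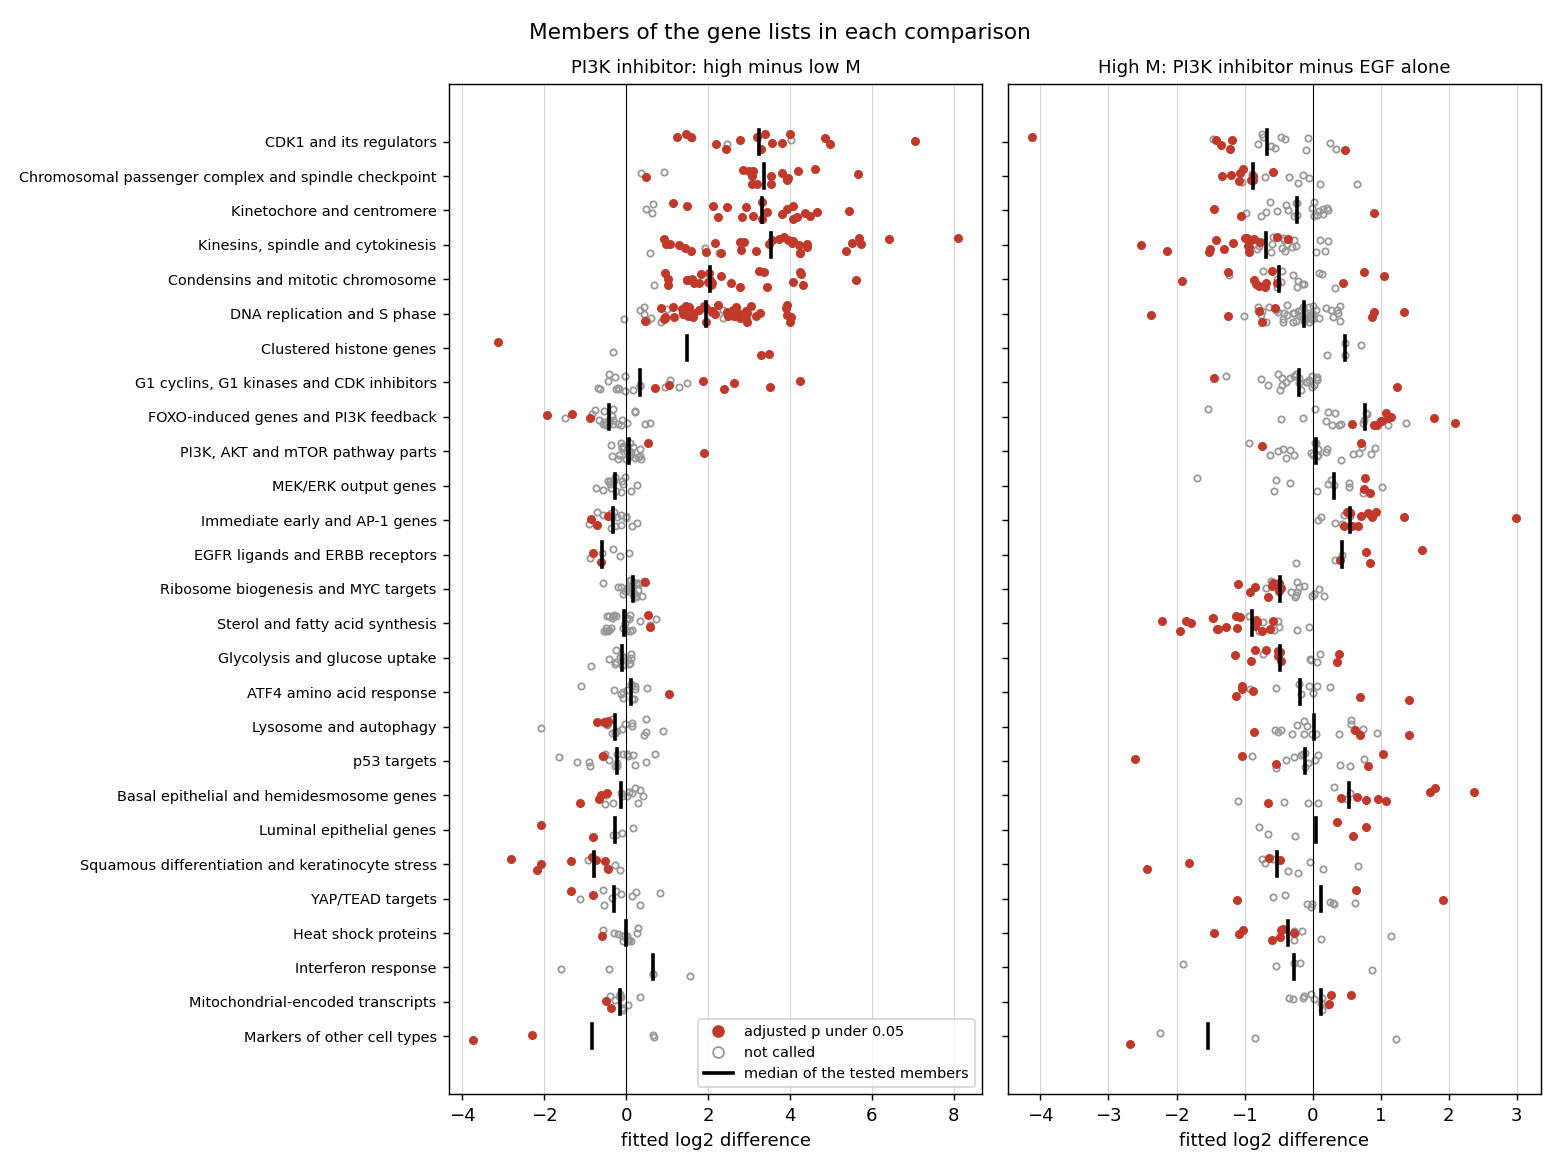
Fitted log2 differences of the members of 27 gene lists, M-high minus M-low cells with the PI3K inhibitor (left) and M-high inhibited cells minus M-high EGF cells (right). Each point is 1 gene, red where the adjusted p was under 0.05 and open otherwise, and the black bar is the median of the tested members. Mitosis and S phase lists lie to the right in the left panel (medians 1.95 to 3.53), while in the right panel the FOXO list (0.76) lies right and sterol and fatty acid synthesis (-0.89) left of 0.

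M-high cells with the inhibitor were next set against the EGF cells at or above the same M, 164 and 289 cells. In cells chosen for the same mitotic transcripts, inhibited ones had more of several FOXO-induced, immediate early and hemidesmosome genes and less of many genes for lipid synthesis, glycolysis, ribosome biogenesis and chaperones. edgeR called 1473 of 8600 genes (17.1%), 779 higher (9.06%) and 694 lower (8.07%). Without the M-high inhibited sum of library 1 there were 670 calls, without that of library 2 there were 553, and without the library as a block there were 445. With library totals the split was 457 higher and 1292 lower and the median of all genes moved to -0.18. M itself was higher in the EGF cells, so 56 and 76 EGF cells were also matched to the inhibited cells by nearest M. Their median M was 6.88 and 13.2, beside 7.83 and 13.1 in the M-high inhibited cells. The matches were drawn from all EGF cells above the M-low limit. Some therefore lay below the M-high limit, with a lowest M of 1.83 and 5.65. Against the matched cells 1100 genes were called, 518 higher and 582 lower, 919 of them shared with the 1473.

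TXNIP had 305 and 262 CPM in M-high inhibited cells, against 82.7 and 68.6 CPM in M-high EGF cells (log2 difference 2.08, SE 0.14, adjusted p = 5.2e-11). IRS2 had 30.5 and 44.5 CPM in M-high inhibited cells, against 16.1 and 23.7 CPM in M-high EGF cells (1.08, SE 0.23, adjusted p = 0.0017). Both genes were higher in each library. FOXO1 itself, which FOXO factors induce, had 45.1 and 65.3 CPM in M-high inhibited cells, against 29.3 and 33.2 CPM in M-high EGF cells (1.01, SE 0.20, adjusted p = 0.00094). Of 26 tested FOXO-induced and PI3K feedback genes 10 were higher and none lower, with a median of 0.76, beside 0.01 over all genes. With EGF cells matched by M 5 of 25 were higher and the median was again 0.76, and with library totals 8 of 26 were higher with a median of 0.59. YPEL3 (1.77), the stress gene GADD45B (1.15), the arrestin ARRDC3 (1.11) and CCNG2, which encodes cyclin G2 (0.91), were among the 10 higher genes. YPEL3 (1.56, adjusted p = 0.098) and CCNG2 (0.99, adjusted p = 0.073) were not called with EGF cells matched by M. CCNG2 was also not called with library totals (0.72, adjusted p = 0.079). Without the M-high inhibited sum of library 2 the calls of IRS2 (adjusted p = 0.15), YPEL3 (0.27), GADD45B (0.20), ARRDC3 (0.36) and CCNG2 (0.61) were lost, and GADD45B also without that of library 1 (0.056).

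The promoter of TXNIP (chr1:145996530-145996829, minus strand, GRCh38.p14, RefSeq) is shown because this gene led the FOXO list. Capitals mark the FOXO element GTAAACA and CCAAT boxes, one of them as ATTGG.
TXNIP: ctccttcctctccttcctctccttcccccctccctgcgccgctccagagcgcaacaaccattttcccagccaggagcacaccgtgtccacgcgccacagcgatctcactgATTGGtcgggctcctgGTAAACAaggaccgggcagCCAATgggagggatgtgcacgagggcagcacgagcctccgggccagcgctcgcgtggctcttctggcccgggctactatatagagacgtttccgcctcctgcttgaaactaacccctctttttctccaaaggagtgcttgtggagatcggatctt
GTAAACA was searched on both strands and found in 3 of 23 promoters of tested FOXO-list genes (13.04%), against 2.29% of tested genes. The CDK1 promoter printed above also holds 1 GTAAACA, left there in small letters. TXNIP lies on chromosome 1 (145992435 to 145996600, minus strand, GRCh38, GENCODE 29) and is protein-coding; counts are per gene and do not resolve exons or UTRs.

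BNIP3L, a mitophagy receptor, had 54.9 and 41.4 CPM in M-high inhibited cells, against 5.12 and 4.97 CPM in M-high EGF cells (3.39, SE 0.28, adjusted p = 2.8e-09), the largest rise after DHRS2 among called genes with at least 20 CPM in either class. DHRS2 (6.61) rests on the same few cells as above. SAT1, the acetyltransferase that breaks down polyamines, had 166 and 259 CPM in M-high inhibited cells, against 39.5 and 73.6 CPM in M-high EGF cells (2.10, SE 0.16, adjusted p = 1.6e-09). The cathepsin gene CTSB had 346 and 396 CPM in M-high inhibited cells, against 138 and 180 CPM in M-high EGF cells (1.41, SE 0.12). It was among 3 of 20 lysosome and autophagy genes that were higher, with SQSTM1 (0.62) and MAP1LC3B (0.70), while the lysosomal hydrolase GLA was lower (-0.86). The calls of SQSTM1 without the inhibited sum of library 1 (adjusted p = 0.15) and of GLA without either sum (0.085 and 0.42) were lost.

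Immediate early genes were higher in inhibited M-high cells. EGR1, a transcription factor induced within minutes of growth factor signals, had 47.6 and 72.5 CPM in M-high inhibited cells, against 11.7 and 6.55 CPM in M-high EGF cells (2.99, SE 0.31, adjusted p = 1.7e-07). Of 18 immediate early and AP-1 genes 11 were higher and none lower (median 0.55), 8 with EGF cells matched by M and 9 with library totals. JUNB had 156 and 233 CPM in M-high inhibited cells, against 59.7 and 115 CPM in M-high EGF cells (1.34, SE 0.15, adjusted p = 6.7e-07), and MYC 251.3 and 309.7 CPM, against 182 and 247 CPM (0.57, SE 0.11, adjusted p = 0.0008, or 0.066 without the library as a block). The ERK phosphatase DUSP6 (0.85), PHLDA1 (0.77) and IER3 (0.75) were the 3 of 15 MEK/ERK output genes that were higher, with none lower. With EGF cells matched by M 1 was higher and none lower, and with library totals 2 were higher and 2 lower. DUSP6 and PHLDA1 lost their calls without the inhibited sum of library 2 (adjusted p = 0.45 and 0.31). The receptor EGFR had 160 and 232 CPM in M-high inhibited cells, against 104 and 155 CPM in M-high EGF cells (0.78, SE 0.13, adjusted p = 0.00017). The EGFR ligands HBEGF (1.61), EREG (0.84) and AREG (0.40) were called as well, but not with EGF cells matched by M (0.69, 0.19 and 0.14). CCND1 had 76.8 and 120.2 CPM in M-high inhibited cells, against 86.7 and 127 CPM in M-high EGF cells (0.06, SE 0.23, adjusted p = 0.89).

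Genes of sterol and fatty acid synthesis were lower in inhibited M-high cells. HMGCS1, which makes the precursor of mevalonate, had 10.98 and 18.6 CPM in M-high inhibited cells, against 63.7 and 91.7 CPM in M-high EGF cells (-2.21, SE 0.25, adjusted p = 6.1e-07). SCD, the desaturase of fatty acids, had 9.76 and 20.7 CPM in M-high inhibited cells, against 63.7 and 65.0 CPM in M-high EGF cells (-1.86, SE 0.27, adjusted p = 2.8e-05). The elongase ELOVL6 (-1.95, SE 0.27) and the sterol reductase DHCR7 (-1.79, SE 0.24) did the same. Of 26 listed genes 17 were lower and none higher (median -0.89), also 17 of 26 with EGF cells matched by M (median -0.89). In M-low inhibited cells HMGCS1 was at 11.9 and 23.7 CPM and SCD at 22.9 and 17.8 CPM, so the low levels were not a feature of M-high cells alone.

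More glycolysis genes were lower than higher, and the called ribosome biogenesis and heat shock genes were all lower. LDHA, lactate dehydrogenase, had 955 and 1353 CPM in M-high inhibited cells, against 1983 and 2187 CPM in M-high EGF cells (-0.69, SE 0.10, adjusted p = 3.1e-05, or 0.068 without the library as a block). Of 15 glycolysis genes 8 were lower, led by the glucose transporter SLC2A1 (-1.14), PGAM1 and PGK1 (-0.85, SE 0.13), and GAPDH (0.36) and PFKP (0.39) were higher. GAPDH and PFKP lost their calls with library totals (0.18 and 0.21) and without the inhibited sum of either library. SLC2A1 lost its call without the inhibited sum of library 1 (adjusted p = 0.12). Of 24 ribosome biogenesis genes 10 were lower and none higher (median -0.48), or 6 with EGF cells matched by M. Among them LYAR had 95.1 and 97.4 CPM in M-high inhibited cells, against 213 and 203 CPM in M-high EGF cells (-0.93, SE 0.14). Of 14 heat shock genes 8 were lower and none higher. HSPE1, the mitochondrial co-chaperonin, had 466 and 471 CPM in M-high inhibited cells, against 1480 and 1442 CPM in M-high EGF cells (-1.46, SE 0.10, adjusted p = 5.2e-11), and HSP90AA1 589 and 711 CPM, against 1544 and 1579 CPM (-1.09, SE 0.09, adjusted p = 6.7e-09). The amino acid response was split, since ATF4 itself was higher (1.41, SE 0.16) and its targets PSAT1 (-1.12, SE 0.26) and TRIB3 (-1.04, SE 0.30) lower. PSAT1 (adjusted p = 0.13) and TRIB3 (0.10) lost their calls without the inhibited sum of library 1, and TRIB3 also without that of library 2 (0.26).

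Hemidesmosome and laminin-332 genes, which anchor basal cells to the basement membrane, were higher. LAMB3 had 418 and 509 CPM in M-high inhibited cells, against 91.5 and 113 CPM in M-high EGF cells (2.36, SE 0.15, adjusted p = 5.2e-11). The integrin subunit gene ITGB4 had 492 and 500.3 CPM in M-high inhibited cells, against 158 and 166 CPM in M-high EGF cells (1.79, SE 0.10, adjusted p = 9.3e-12). LAMA3 was higher by 1.73 (SE 0.23) and KRT17 by 1.08 (SE 0.13, adjusted p = 2e-06, or 0.25 without the library as a block). Of 16 basal genes 8 were higher and KRT5 was lower (-0.65, SE 0.11). With EGF cells matched by M, and also with library totals, 7 were higher and 2 lower. The alarmins S100A8 (-2.44, SE 0.36) and S100A9 (-1.82, SE 0.28) were among 4 of 12 squamous genes that were lower. FGFBP1, a carrier of fibroblast growth factors, had 70.7 and 74.6 CPM in M-high inhibited cells, against 488 and 517 CPM in M-high EGF cells (-2.62, SE 0.21, adjusted p = 1.9e-09). The receptor kinase gene AXL (1.92, SE 0.29) and the large scaffold gene AHNAK2 (2.08, SE 0.20) were higher. KRT16 was not called, with 84.2 and 133 CPM in M-high inhibited cells, against 62.2 and 91.9 CPM in M-high EGF cells (0.67, SE 0.26, adjusted p = 0.076).

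MT2A and MT1E, metallothioneins that bind zinc and copper, were higher with the inhibitor, and MT2A was also higher in M-high than in M-low inhibited cells. MT2A had 28724 and 19427 CPM in M-high inhibited cells, against 6572 and 7017 CPM in M-high EGF cells (2.01, SE 0.15, adjusted p = 1.1e-09). M-low inhibited cells had 12240.0 and 10279 CPM, a log2 difference of 0.96 (SE 0.15) below M-high ones. Per cell, the median of MT2A was 254 and 174 UMIs per 10,000 in M-high inhibited cells, 93.5 and 84.9 in M-low inhibited cells, 57.2 and 67.2 in M-high EGF cells and 7.77 and 12.05 in M-low EGF cells, so the order of the sums was also that of the medians. MT1E had 1342 and 836 CPM in M-high inhibited cells, against 247 and 274 CPM in M-high EGF cells (2.23, SE 0.15). It was not called between M-high and M-low inhibited cells (-0.20, SE 0.14). Reads of MT1E and MT2A can be shared with other metallothionein genes.

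Some lists of mitotic genes held many lower members in inhibited M-high cells, set against EGF cells above the same limit, and few once EGF cells were matched by M. Of 34 kinesin, spindle and cytokinesis genes 17 were lower, against 1 lower and 1 higher after matching. The spindle checkpoint list went the same way, with 9 of 18 lower, against 2 after matching. Of 26 condensin and mitotic chromosome genes 9 were lower and 3 higher, against 2 lower and 3 higher after matching. Kinetochore and centromere genes, with 2 of 23 lower and 1 higher, were near the share of lower calls over all genes (8.07%). The mitotic kinesin gene KIF20A had 3.66 and 4.14 CPM in M-high inhibited cells, against 22.3 and 29.1 CPM in M-high EGF cells (-2.53, SE 0.47), and -0.64 after matching. PIF1, a DNA helicase, had 1.22 and 1.04 CPM in M-high inhibited cells, against 19.03 and 27.3 CPM in M-high EGF cells (-4.12, SE 0.65, adjusted p = 7.8e-05), and -2.39 after matching (adjusted p = 0.089). CDK1 (-0.73, SE 0.28, adjusted p = 0.071) and MKI67 (-0.73, SE 0.28, adjusted p = 0.076) were not called.

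Replication genes behaved the other way round under matching. Of 55 S phase genes 5 were lower and 3 higher in M-high inhibited cells (median -0.13). Over all genes 8.07% were lower and 9.06% higher, so these counts were near or under those shares. With EGF cells matched by M 14 of 53 were lower and none higher (median -0.62), beside 582 lower of 8773 genes tested. MCM6 had 4.88 and 3.11 CPM in M-high inhibited cells, against 30.4 and 18.3 CPM in M-high EGF cells (-2.38, SE 0.47, adjusted p = 0.00086), and -3.24 after matching. CDT1 had 69.5 and 52.8 CPM in M-high inhibited cells, against 23.4 and 31.6 CPM in M-high EGF cells (1.35, SE 0.33, adjusted p = 0.0052). The CDT1 call was lost after matching (0.86, adjusted p = 0.087) and without the inhibited sum of library 1 (0.62, adjusted p = 0.35). LMNB1, which encodes lamin B1, was lower by 1.92 on the log2 scale (SE 0.33, adjusted p = 0.00017), and by 1.13 after matching (adjusted p = 0.075). The heterochromatin protein gene CBX5 had 102.5 and 102.5 CPM in M-high inhibited cells, against 57.5 and 55.5 CPM in M-high EGF cells (1.04, SE 0.18, adjusted p = 0.00015). Of 25 G1 cyclins, G1 kinases and CDK inhibitors 1 was higher and 1 lower, a share under that over all genes (17.1%). Those were CDKN1C (1.24, adjusted p = 0.02) and CDKN2C (-1.45, adjusted p = 0.01). Neither was called with EGF cells matched by M (1.44 and -1.18, adjusted p = 0.055 and 0.079). CDKN1C lost its call without the inhibited sum of library 1 (adjusted p = 0.21) and of library 2 (0.12), and CDKN2C without that of library 2 (0.38).

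**Figure D4:**
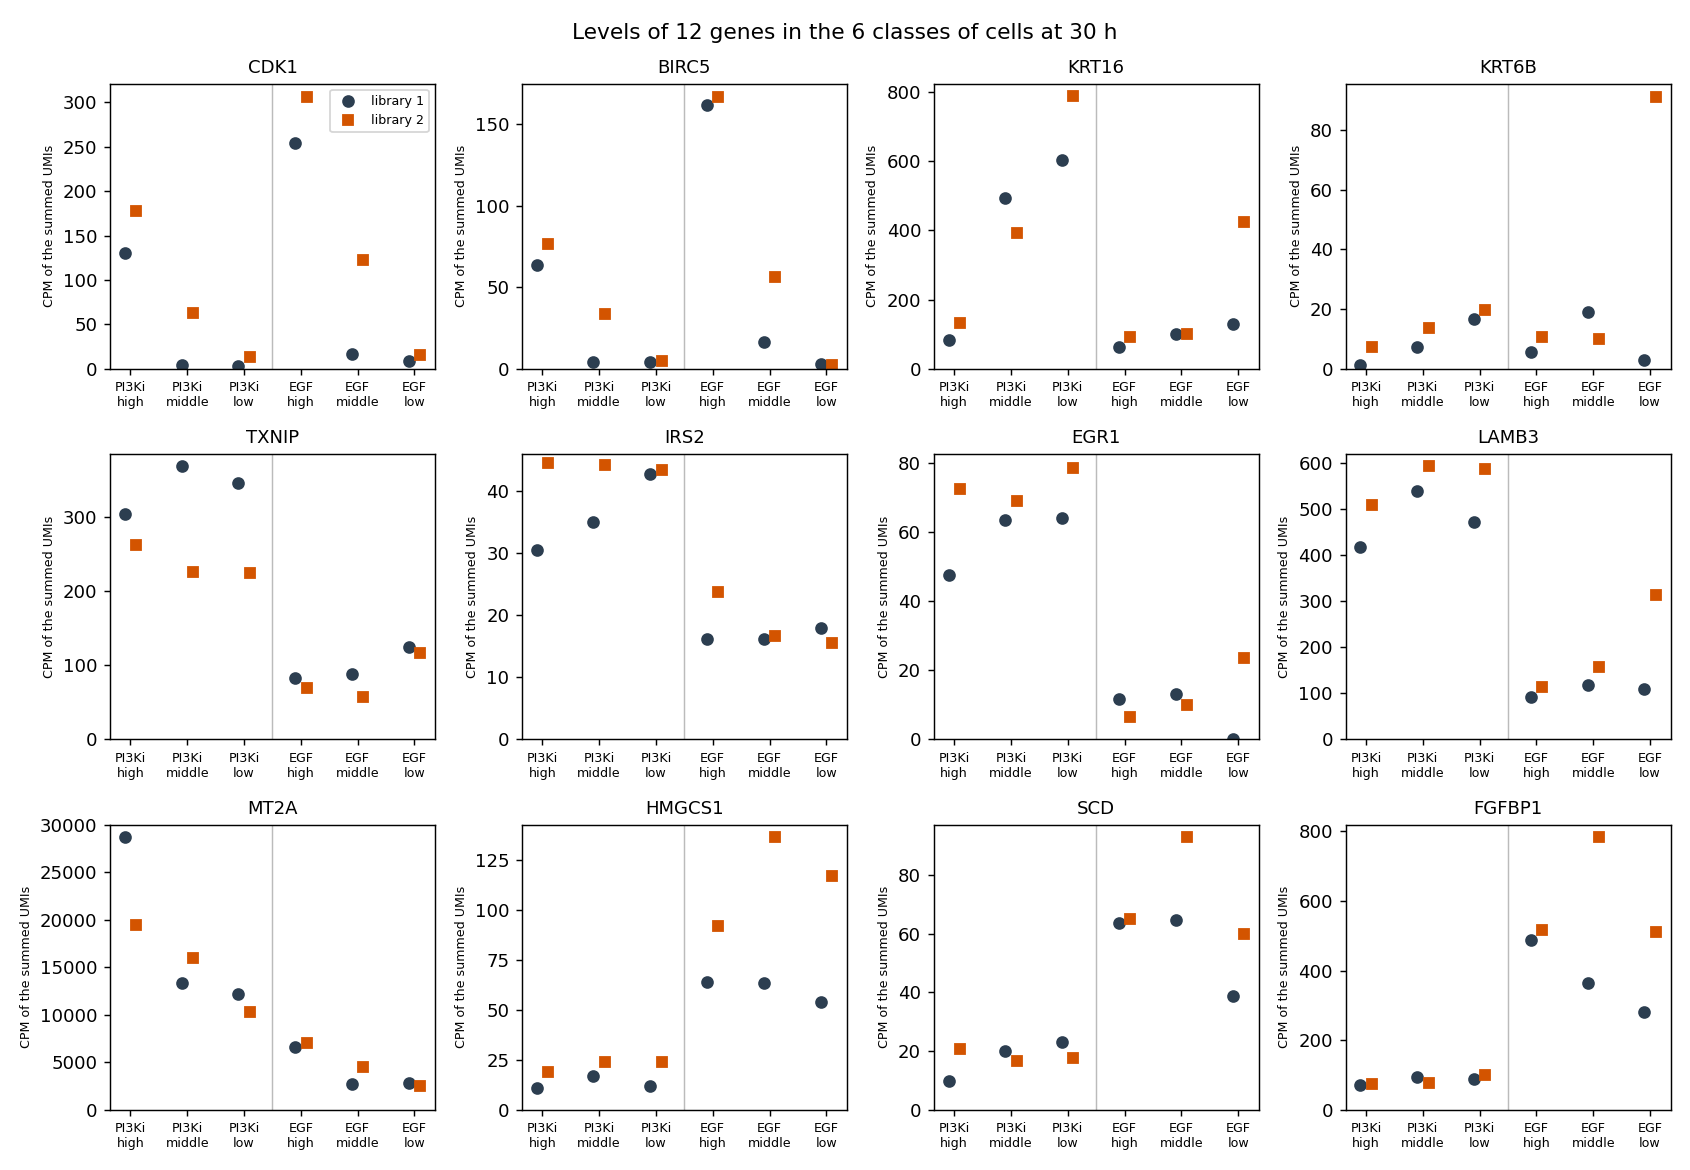
Summed levels of 12 genes in CPM in the classes by M at 30 h, with the PI3K inhibitor left of the grey line and EGF alone right of it. Each point is the sum of 1 library, with circles for library 1 and squares for library 2, and each axis starts at 0. CDK1 and BIRC5 follow M in both treatments, while TXNIP, EGR1, LAMB3, HMGCS1, SCD and FGFBP1 differ between treatments in M-high cells.

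The effect of the inhibitor was also taken in M-low cells, where 446 inhibited cells stood against 57 EGF cells at or below the same M. There edgeR called 641 genes (7.45%), 329 higher and 312 lower. TXNIP had 346 and 225 CPM in M-low inhibited cells, against 125 and 117 CPM in M-low EGF cells (1.34, SE 0.18). The FOXO list as a whole was split in M-low cells, with 3 of 26 tested genes higher, 2 lower and a median of 0.29. Per cell that list took a median of 11.02 and 12.98 UMIs per 10,000 in M-low inhibited cells, against 7.77 and 11.19 in M-low EGF cells. The differences of LAMB3 (1.44, SE 0.18), HMGCS1 (-2.12, SE 0.26) and FGFBP1 (-1.95, SE 0.21) in M-low cells had the sign they had in M-high cells. A test of the difference between M-high minus M-low under inhibitor and the same under EGF alone called 3 genes of 8600 (0.0349%), all higher, with 629 at an unadjusted p under 0.05. DESeq2 called 18 genes, 1 of them among these 3, and gave no adjusted p to 8003 of the 8600. TXNIP (0.74, SE 0.23, adjusted p = 0.42), LAMB3 (0.93, SE 0.24, adjusted p = 0.23) and HMGCS1 (-0.09, SE 0.37, adjusted p = 0.99) were not among them. Without the M-high inhibited sum of library 1 that test called 1 gene, and without the library as a block 0.

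The 3 genes were H2AFJ, BAX and RPS27L. BAX, the pore-forming protein of apoptosis and a p53 target, had 131 and 109.8 CPM in M-high inhibited cells and 94.9 and 97.6 CPM in M-low inhibited cells, against 164 and 145 CPM in M-high EGF cells and 256 and 307 CPM in M-low EGF cells (1.24, SE 0.21, adjusted p = 0.01). H2AFJ, a histone H2A variant, had 106 and 109 CPM in M-high inhibited cells and 69.7 and 71.1 CPM in M-low inhibited cells, against 63.0 and 56.0 CPM in M-high EGF cells and 149 and 120 CPM in M-low EGF cells (1.84, SE 0.25, adjusted p = 0.00066). RPS27L, a p53-induced paralog of RPS27 with which it can share reads, had 292 and 255 CPM in M-high inhibited cells and 313 and 271 CPM in M-low inhibited cells, against 298 and 244 CPM in M-high EGF cells and 602 and 551 CPM in M-low EGF cells (1.05, SE 0.19, adjusted p = 0.026). For all 3 the highest levels were those of the 29 and 28 M-low EGF cells. The call of BAX was lost without the M-high inhibited sum of library 1 (1.05, adjusted p = 0.39), and that of RPS27L without either sum (adjusted p = 0.23 and 0.33).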

How the data were processed

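Per the labels' protocols, conditions were told apart by sample tags, and the tagged, methanol-fixed cells of a biological replicate were sequenced together as 1 library. The authors deposited unnormalised UMI counts for every gene in every cell. Per the submitters' processing notes, Cell Ranger 3.0.2, Seurat and genome build GRCh38 were used; how tags were called and cells filtered is not given in the sources used. Of the barcodes in the tag tables, 56.1% and 40.2% were called doublets; no caller was run on the single-tagged cells, and doublets within a tag cannot be seen. No cell fell under 1000 UMIs or above 20% of UMIs from mitochondrial genes (0 removed). The libraries held 33089090 and 28542571 UMIs.

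Counts of the 16387 genes in both tables were summed by library and class (12 sums) and tested in R 4.3.3 by the quasi-likelihood method of edgeR 4.0.16, with TMM scaling, the library as a block and genes kept by filterByExpr, after a check on simulated data. Adjusted p is Benjamini-Hochberg over 8600 genes, with 5 residual degrees of freedom and a biological coefficient of variation of 0.0763. The block comes from the design, since the conditions of a replicate share 1 pool. With 2 libraries an exact permutation test cannot reach 0.05. Since the library is a block, p-values cover only how differences between classes vary from 1 library to the other. That spread is pooled over all classes, and the classes by M of each treatment and library come from the same culture. In the comparison between treatments, spread between cultures is not separated from it, and the culture was not run as a block there. DESeq2 1.42.0 was an alternative. Counting intervals (95%) and the floor of 3 counts cover counting error only.

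Named genes are the largest changes with adjusted p under 0.05, 20 CPM or more on average in one of the classes and the same sign in both libraries: 8 rises, 10 rises outside the cell cycle lists and 12 falls between M-high and M-low, 10 each way between treatments, 5 each way for the difference of differences, up to 4 called members of each list with exceptions to its direction, and 17 fixed genes. The ones described in full were chosen from these; PCNA and FOXO1 fall outside the rule and were chosen after their values were seen. Of 599 list entries 581 matched, 2 by another symbol. Members, classes and lists were chosen with earlier results of these data known.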

Additional observations from a re-analysis of the deposited data

Results flagged for a closer look

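In 3 genes the difference between M-high and M-low cells differed between the PI3K inhibitor and EGF alone by a test of that difference in edgeR. The log2 difference of differences was 1.84 for H2AFJ, 1.24 for BAX and 1.05 for RPS27L. M-low EGF cells, 29 and 28 in the libraries, had the highest levels of each. BAX (adjusted p = 0.075) was not called when EGF cells were matched by M, and RPS27L (adjusted p = 0.056) was not called with the top 10% in place of 15%. DESeq2 called RPS27L (adjusted p = 0.0039) and gave no adjusted p for H2AFJ and BAX.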

How the results depend on the processing

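Depth and the number of libraries limit these results: M-low EGF cells sum to 335553 and 384846 UMIs, and M-high inhibited cells are 56 and 76. Without the replicate block 334 genes were called between M-high and M-low inhibited cells in place of 820, 445 between treatments in place of 1473, and 0 for the difference of differences in place of 3. DESeq2 called 474, 829 and 18, and gave no adjusted p to 3168 genes in the second comparison and 8003 in the third. Leaving out the M-high inhibited sum of 1 library gave 375 to 383, 553 to 670 and 1 to 3 calls. The lone sum left is then assumed to vary like the other classes. The difference of differences gave 7 calls with library totals, 35 with no filter on low counts, 8 with the top 25%, 8 with M from counts thinned to 5000 UMIs, 7 with the culture as the block and 5 without cells over 20000 UMIs, a setting chosen after seeing the data. Every setting but DESeq2, the missing block and the sums left out kept the counts of the first and second comparison within 1.5 times. With EGF cells matched by M, PSRC1 (0.10) and CCNB2 (0.0745) changed sign between treatments. No other called, named gene changed sign under the alternatives run. Causes of these shifts were not tested.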
